A study of Homo sapiens with 5 samples.

Results

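The clade B serpins examined here were SERPINB1, SERPINB2, SERPINB3, SERPINB4, SERPINB5, SERPINB6, SERPINB7, SERPINB8 and SERPINB13, taken by name as 9 of the 13 clade B serpins among the 33538 genes of the count matrices. They were followed through 5 single-cell libraries, 1 per timepoint, of the line KYSE30-Luc-GFP. KYSE30 is an established human esophageal squamous cell carcinoma (ESCC) line, and this derivative carries luciferase and green fluorescent protein (GFP). The parental library came from cells in culture, and the others from GFP-positive cells sorted out of dissociated lungs. NOD SCID mice, whose B and T cells are not functional while innate immunity remains, had received the cells by tail vein, and their lungs were taken after 6 h, 48 h, 2 months or 4 months. Cells of several mice were pooled at 6 h, 48 h and 2 months, and those at 4 months came from a single mouse. The lungs were digested with enzymes and depleted of mouse cells before sorting, so time in the lung and this handling go together. Their parts in differences between lung and culture cannot be told apart and were not tested. Since barcodes carry no label of the mouse, each timepoint is 1 sample without a replicate, no test was run, and every interval below is a 95% interval that covers counting error only.

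Serpins are protease inhibitors that present a reactive loop to a protease, are cleaved and then trap the enzyme in an irreversible complex. Clade B members lack a classical secretion signal and mostly stay inside the cell, where they are thought to protect it from leaked or internalized proteases. Several of them mark stratified squamous epithelium, the tissue from which ESCC arises: SERPINB5 (maspin) is widespread in squamous epithelium, while SERPINB3 and SERPINB4 (squamous cell carcinoma antigens 1 and 2) and SERPINB13 (headpin) belong to its differentiating layers. Others are shared with leukocytes, such as SERPINB1, an inhibitor of neutrophil elastase, and SERPINB2, plasminogen activator inhibitor 2.

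All 9 genes were matched by identifier to GENCODE 44 on GRCh38, and they form a pair of clusters. SERPINB1 (6:2832332-2841959) and SERPINB6 (6:2948159-2972165) lie on the minus strand of the short arm of chromosome 6. The other 7 lie within 543 kb of the long arm of chromosome 18, from SERPINB5 (18:63476958-63505085) through SERPINB13 (18:63586989-63604639), SERPINB4 (18:63637259-63644256), SERPINB3 (18:63655197-63661893), SERPINB7 (18:63752935-63805376) and SERPINB2 (18:63871692-63903888) to SERPINB8 (18:63970029-64019779). SERPINB3 and SERPINB4 are on the minus strand and the other 5 on the plus strand. SERPINB3 lies inside SERPINB11, which is on the opposite strand.

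SERPINB3 and SERPINB4 are near-identical copies, which bears on how their counts can be read. Their upstream sequences (RefSeq, GRCh38.p14) are shown because the pair appeared in the same libraries and often in the same cells. Over the 250 bases before the start, 247 were identical (98.8%), and the 3 that differ, 125, 50 and 23 bases before the start, are in capitals. The SERPINB3 window, chr18:63661894-63662143 on the minus strand, lies inside SERPINB11, and the SERPINB4 window is chr18:63644257-63644506 on the minus strand.
SERPINB3: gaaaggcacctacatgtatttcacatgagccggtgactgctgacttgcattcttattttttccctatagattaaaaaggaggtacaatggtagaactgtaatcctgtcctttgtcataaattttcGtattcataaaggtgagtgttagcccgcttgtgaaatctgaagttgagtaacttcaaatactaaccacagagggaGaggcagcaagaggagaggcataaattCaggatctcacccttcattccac
SERPINB4: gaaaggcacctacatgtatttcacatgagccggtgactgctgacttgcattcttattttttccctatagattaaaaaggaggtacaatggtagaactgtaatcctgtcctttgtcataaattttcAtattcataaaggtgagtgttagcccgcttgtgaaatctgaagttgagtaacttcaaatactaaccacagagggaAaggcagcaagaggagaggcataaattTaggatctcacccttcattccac

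The reference transcript of SERPINB3, 1707 bases long, was compared with that of SERPINB4. Aligned from their 3′ ends without gaps, they shared 1633 bases (95.7%), and 482 of the last 500 (96.4%), the end that a 3′ library reads, with a longest identical run of 106 bases. How the authors' counting treated reads that match both was not tested, so the split of UMIs between SERPINB3 and SERPINB4 is uncertain and their values below are best read together.

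The upstream sequences of SERPINB13 and SERPINB2 are shown as those of a gene that appeared late and a gene that was highest at 6 h. Capitals mark 2 motifs searched on both strands, the AP-1 motif TGANTCA and the TATA box TATAAA. For SERPINB13 the 172 bases from 215 to 44 before the RefSeq start, chr18:63587128-63587299 on the plus strand, are given, since the bases on either side fall in annotated exons. The SERPINB2 window is chr18:63887455-63887704 on the plus strand, within the first intron of a longer transcript of the gene.
SERPINB13: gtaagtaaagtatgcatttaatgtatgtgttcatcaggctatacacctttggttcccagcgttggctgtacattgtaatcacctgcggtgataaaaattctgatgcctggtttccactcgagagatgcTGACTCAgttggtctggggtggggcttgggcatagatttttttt
SERPINB2: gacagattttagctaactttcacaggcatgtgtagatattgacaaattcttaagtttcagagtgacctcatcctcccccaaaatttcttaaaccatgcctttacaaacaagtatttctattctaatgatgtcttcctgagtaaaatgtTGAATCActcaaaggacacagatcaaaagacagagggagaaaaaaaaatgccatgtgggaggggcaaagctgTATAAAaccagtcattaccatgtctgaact

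SERPINB13 held the AP-1 letters at position -87 and SERPINB2 at -102, with TATAAA at -30. Over the 14 annotated 250-base windows of the 9 genes, 6 windows of 5 genes (SERPINB2, SERPINB5, SERPINB7, SERPINB8 and SERPINB13) held the AP-1 letters, and 3 windows of 3 genes (SERPINB2, SERPINB7 and SERPINB8) held TATAAA. Of all 35116 windows in the table, 6.57% held the first and 10.7% the second. A match describes letters in the window and not a bound site.

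The matrices hold counts of unique molecular identifiers (UMIs), each marking 1 captured RNA molecule read at its 3′ end. Of 2073 to 9593 barcodes per library, those with 200 to 8000 genes, no fewer than 1000 UMIs and no more than 15% of UMIs from mitochondrial genes were kept, which left 1149 to 9059 cells per library with a median of 12979 (6 h) to 39076 (48 h) UMIs. Between 6 and 91 barcode sequences were shared by any 2 libraries. The study's signature gene filter, at least 1 UMI of C19orf33, S100A14 or RHOD and at least 1 UMI of a second gene group that includes CST6, CD44 and TM4SF1, split the parental library into 1310 signature-positive and 7749 signature-negative cells and the 2-month library into 2716 and 606. At the other times, 34 to 50 cells were signature-negative. All kept cells carried the label of an ESCC line. The epithelial markers KRT5, KRT6A, KRT14, KRT17, TP63, SFN, CDH1, EPCAM, KRT8 and KRT18 were summed in CPM (UMIs of a gene for every 1000000 UMIs of the group). The sum was 7608 CPM in signature-positive and 335 CPM in signature-negative parental cells, with KRT5 and KRT14 near 0 in both. It was between 10372 and 20079 CPM in the lung libraries. At 4 months against signature-positive parental cells, 6 of the 10 were higher and 2 lower by at least 2-fold.

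Across timepoints the family was lowest in culture. Its summed level was 62.8 CPM in signature-negative and 102.5 CPM in signature-positive parental cells, 370 CPM at 6 h, 238 CPM at 48 h, 177 CPM at 2 months and 248 CPM at 4 months. SERPINB6 held 56.6% of the family's UMIs in signature-positive parental cells, whereas SERPINB5 held between 43.5% (48 h) and 50.9% (4 months) in the lung libraries. The members present differed too: SERPINB3, SERPINB4 and SERPINB13 had no UMI among 204864006 in the parental library, and at 4 months they held 4.93%, 0.534% and 8.08% of the family's UMIs. Since 3′ counting gives 1 UMI per molecule, levels were not divided by gene length.

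**Figure D1:**
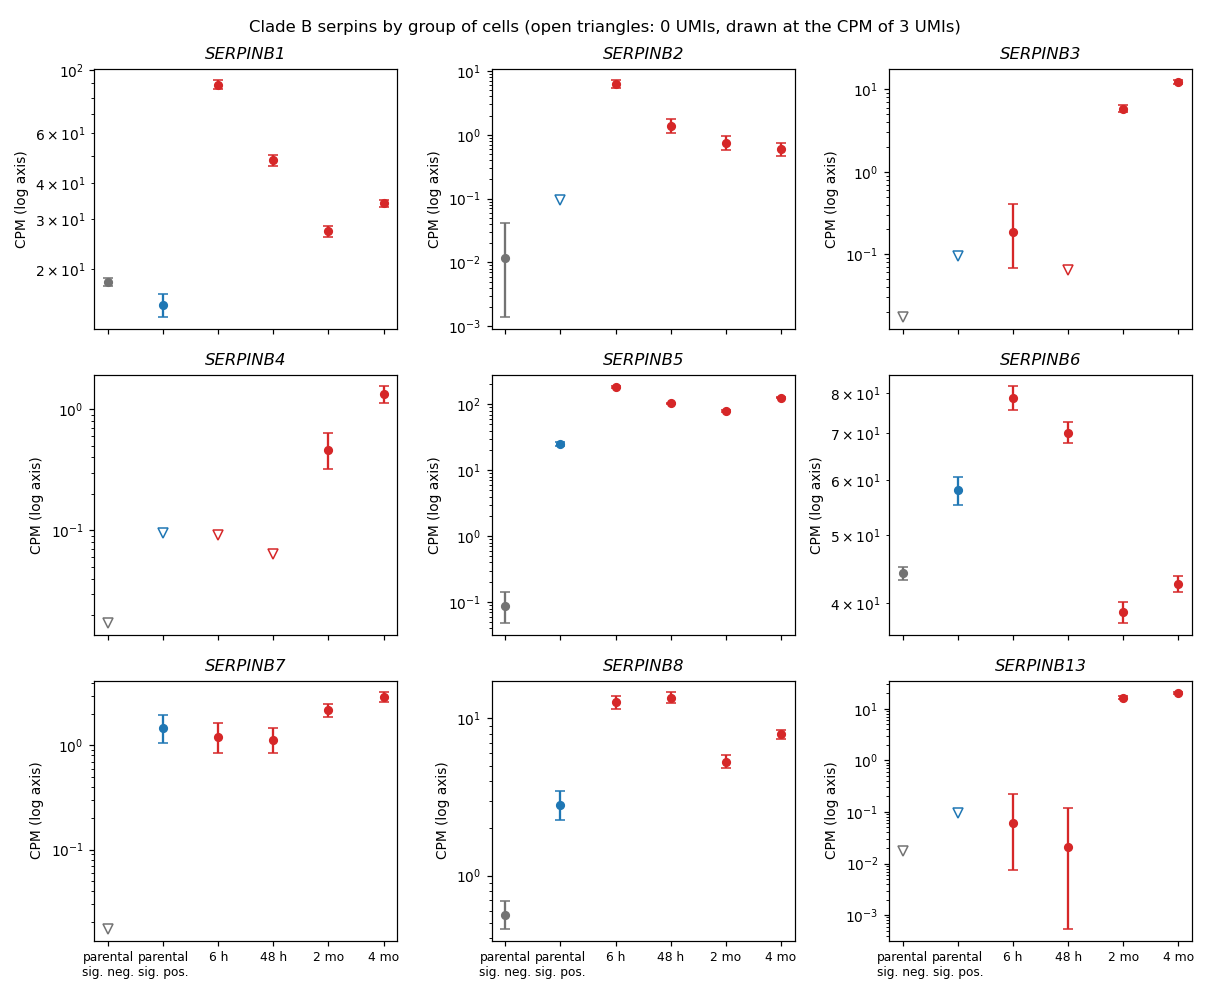
Level of each clade B serpin in CPM (log axis, 1 panel per gene with its own range) in signature-negative and signature-positive parental cells and in the 4 lung libraries; points are 1 library or group of cells, bars are exact Poisson 95% intervals, and open triangles mark 0 UMIs at the level of 3 UMIs. SERPINB1 and SERPINB5 stand highest at 6 h (88.6 and 182 CPM), and SERPINB3, SERPINB4 and SERPINB13 have 0 to 6 UMIs up to 48 h and 37 to 1332 UMIs at 2 months.

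For each comparison, log2 ratios of CPM with 1 CPM added were computed for every gene that reached 5 CPM in 1 group or the other, and a gene was called where the ratio passed 2-fold. Signature-positive against signature-negative parental cells asks which members went with the signature in culture. In it 3 members were tested, 1 was higher (SERPINB5) and 0 lower, where 12.9% of 10711 genes were called higher and 18.8% lower. At 6 h against signature-positive parental cells, 4 of 5 members tested were higher (SERPINB1, SERPINB2, SERPINB5, SERPINB8) and 0 lower, against 10.6% and 12.3% of all genes. From 6 h to 48 h, 0 of 5 were higher and 1 lower (SERPINB2), against 3.24% and 1.42%. From 48 h to 2 months, 2 of 6 were higher (SERPINB3, SERPINB13) and 1 lower (SERPINB8), against 12.2% and 13%. From 2 to 4 months 0 of 6 were called in either direction, where 3.03% of all genes were higher and 9.38% lower. At 4 months against signature-positive parental cells, 5 of 6 were higher (SERPINB1, SERPINB3, SERPINB5, SERPINB8, SERPINB13) and 0 lower, against 8.18% and 14.4%. At 2 months, signature-positive against signature-negative cells, 4 of 6 were higher (SERPINB3, SERPINB5, SERPINB8, SERPINB13) and 0 lower, against 18.8% and 21.9%. A member that is low in 1 group passes the 5 CPM minimum only through the other, so these counts describe the members and do not set them apart from other genes.

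**Figure D2:**
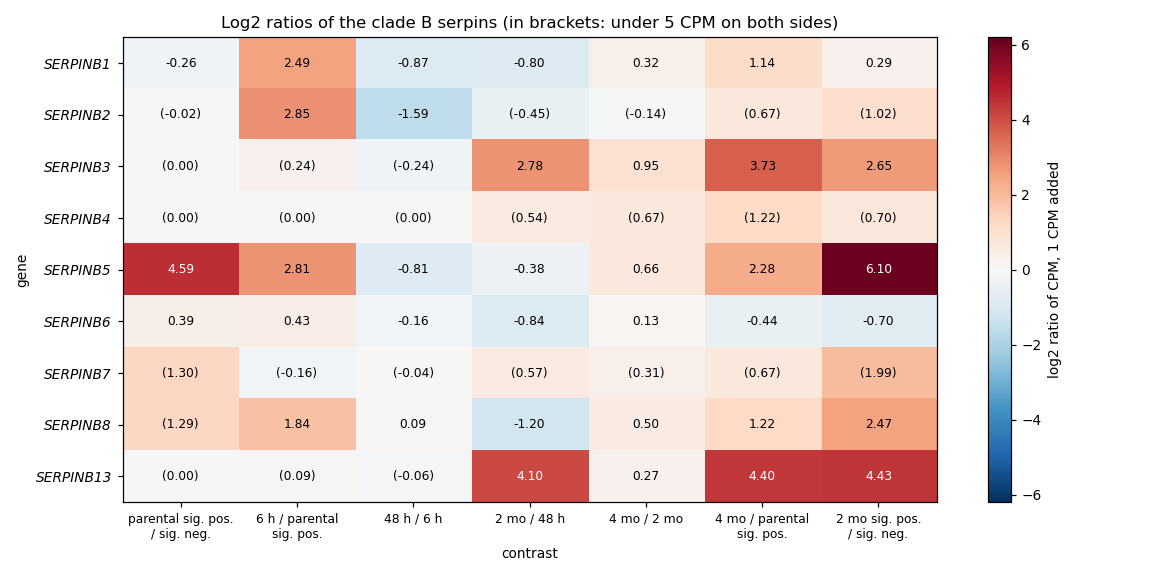
Log2 ratios of CPM (1 CPM added) of the 9 clade B serpins in the 7 comparisons, written in each cell and coloured from blue (lower) to red (higher); values in brackets had under 5 CPM on both sides and were not called. SERPINB5 has 4.59 and 6.10 in the columns that compare signature classes, and SERPINB13 has 4.10 from 48 h to 2 months.

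SERPINB5, known as maspin, resembles an inhibitory serpin but does not inhibit proteases in the usual way and is described as a tumor suppressor in several epithelia. In culture it was found almost entirely in the signature-positive class, at 25.2 CPM (23.5 to 27.1) against 0.0866 CPM (0.0485 to 0.143) in signature-negative parental cells, a ratio of 292 (176 to 524). A UMI of it was found in 527 of 1310 signature-positive cells (40.2%) and in 13 of 7749 signature-negative cells (0.168%), at median depths of 24831 and 22772 UMIs, and the second share serves as its background. At 6 h it stood at 182 CPM (178 to 187), 7.23 times (6.71 to 7.79) the level of signature-positive parental cells. It was then 103 CPM at 48 h, 79.5 CPM at 2 months and 126 CPM at 4 months, without a call between neighbouring timepoints. The 2-month library mixes both classes: its signature-positive cells held 109 CPM (106 to 111) and its signature-negative cells 0.598 CPM (0.318 to 1.02), a ratio of 182 (106 to 341), with 69.8% and 1.49% of cells positive.

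The share of SERPINB5-positive cells and its level gave different orders. With all UMIs, the share of positive cells was 66.8% at 6 h and 76.0% at 48 h, then 57.3% at 2 months and 81.2% at 4 months. With each cell thinned at random to 1000 UMIs, the shares were 14.6% (13.0 to 16.2), 7.92% (6.42 to 9.64), 7.68% (6.79 to 8.63) and 11.5% (10.6 to 12.5), so that 6 h was highest, as in CPM, and 48 h and 2 months did not separate. Its UMIs were spread widely, with 787 cells (17.5%) holding 50% of them at 4 months.

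**Figure D3:**
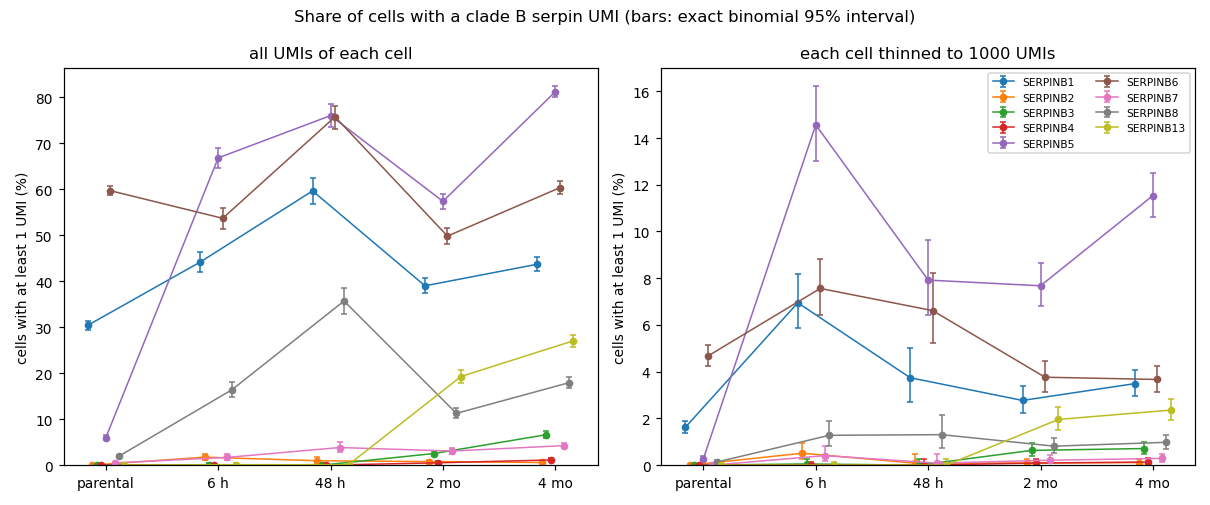
Share of cells with at least 1 UMI of each clade B serpin in the parental and the 4 lung libraries, with all UMIs (left) and with each cell thinned to 1000 UMIs (right); the y axes differ, and bars are exact binomial 95% intervals. The 48 h library, the deepest, is highest on the left for SERPINB1, SERPINB6 and SERPINB8 (59.6%, 75.7% and 35.7%); on the right SERPINB1 and SERPINB6 are highest at 6 h (6.95% and 7.56%), and SERPINB8 is 1.28% at 6 h and 1.31% at 48 h.

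SERPINB1, which inhibits the neutrophil proteases elastase, cathepsin G and proteinase 3, was present in every library. It had 18.1 CPM (17.4 to 18.7) in signature-negative and 14.9 CPM (13.6 to 16.3) in signature-positive parental cells, 88.6 CPM (85.4 to 91.9) at 6 h, 48.2 CPM (46.2 to 50.2) at 48 h, 27.1 CPM (26.0 to 28.3) at 2 months and 34.0 CPM (33.02 to 35.1) at 4 months. The 6 h level was 5.93 times (5.38 to 6.55) that of signature-positive parental cells. The level at 48 h was 0.543 times that at 6 h and the level at 2 months 0.564 times that at 48 h, neither of them called, and the 4-month level remained 2.28 times (2.07 to 2.51) the parental one. SERPINB1 is abundant in leukocytes, and 7 leukocyte markers summed to 35.6 CPM at 6 h against 8.89 CPM in signature-positive parental cells, with 3 of the 7 at 0 in each. Of their 1159 UMIs at 6 h, 594 lay in the 35 signature-negative cells, which held 2 of the 2884 SERPINB1 UMIs and only 142448 UMIs of all genes. The rest of the marker UMIs lay in signature-positive cells, as did 2882 SERPINB1 UMIs. The part of host leukocytes, which are mouse cells while reads were counted on the human genome, was not tested.

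SERPINB6, an inhibitor of cathepsin G and related serine proteases with broad tissue expression, varied least among the members detected in every library. Its level was 44.1 CPM (43.1 to 45.1) in signature-negative and 58.0 CPM (55.4 to 60.7) in signature-positive parental cells, 78.7 CPM (75.7 to 81.8) at 6 h, 70.2 CPM (67.8 to 72.6) at 48 h, 38.8 CPM (37.5 to 40.2) at 2 months and 42.6 CPM (41.5 to 43.8) at 4 months. No comparison called it. At 2 months it was higher in the signature-negative class, 54.4 CPM (51.3 to 57.6) against 33.1 CPM (31.6 to 34.6), whereas in culture the signature-positive class was higher, and over signature-positive cells alone the step from 48 h to 2 months was called lower (log2 ratio -1.07).

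SERPINB8, an inhibitor of the proprotein convertase furin, followed the early rise. It had 0.566 CPM (0.459 to 0.689) in signature-negative and 2.82 CPM (2.26 to 3.47) in signature-positive parental cells, then 12.6 CPM (11.4 to 13.9) at 6 h and 13.5 CPM (12.5 to 14.6) at 48 h, which overlap. The 6 h level was 4.49 times (3.56 to 5.71) that of signature-positive parental cells. At 2 months it was 5.32 CPM (4.83 to 5.84) and at 4 months 7.91 CPM (7.42 to 8.41). The step down from 48 h to 2 months, a ratio of 0.393 (0.347 to 0.445), was called, but not over signature-positive cells alone, where 7.10 CPM stood against 13.6 CPM (log2 ratio -0.85), nor with equal weight of cells (-0.93). Furin itself, FURIN, was 12.8 CPM in signature-positive parental cells, 33.6 CPM at 6 h, 30.2 CPM at 48 h, 12.3 CPM at 2 months and 16.6 CPM at 4 months, and was called higher at 6 h (log2 ratio 1.33) and lower at 2 months (-1.23), the latter not over signature-positive cells alone (-0.98).

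SERPINB2, which inhibits the plasminogen activators PLAU (urokinase) and PLAT, was seen in few cells at any time. It had 2 UMIs in the whole parental library and 0 in its signature-positive cells, 202 UMIs or 6.21 CPM (5.38 to 7.13) at 6 h, 1.39 CPM (1.07 to 1.77) at 48 h, 0.754 CPM (0.577 to 0.969) at 2 months and 0.590 CPM (0.463 to 0.740) at 4 months. The 6 h level was 65.4 times the level that 3 counts would give in signature-positive parental cells. Such folds over 3 counts, here and below, leave out the counting error of the higher level and are not interval limits. At 6 h the UMIs came from 34 of 1957 cells (1.74%, 1.21 to 2.42), 4 cells held 50% of them and 1 cell held 60. At 48 h 1 of 11 positive cells held 50 of the 65 UMIs. Without the top cell of each library the levels were 4.37 CPM at 6 h and 0.321 CPM at 48 h, and both calls of SERPINB2 were lost because neither side reached 5 CPM. The 35 signature-negative cells at 6 h, which held 594 of the 1159 leukocyte marker UMIs, had no SERPINB2 UMI. They held only 142448 of the library's 32540023 UMIs, too few to give the level of SERPINB2 in them.

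The plasminogen system, taken as 8 genes, was read beside SERPINB2. At 6 h against signature-positive parental cells, 6 of 7 genes tested were higher and 0 lower, with a median log2 ratio of 1.95 against -0.05 over all genes; PLAU went from 55.5 to 568 CPM and its receptor PLAUR from 58.9 to 158 CPM. From 48 h to 2 months 0 were higher and 5 of 7 lower, with a median of -3.26 against -0.05 over all genes (1 higher and 5 lower over signature-positive cells alone); PLAU fell to 42.7 CPM from 505 CPM, and PLAUR to 27.7 CPM from 274 CPM.

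SERPINB13, an inhibitor of the lysosomal cathepsins K and L in squamous epithelium, was not detected in culture, had 3 UMIs in the early lung libraries and was frequent late. No UMI was found in 9059 parental cells, which allows up to 0.0331% of cells with a UMI at this depth and sets no limit on cells that express the gene below detection, and 2 cells at 6 h and 1 cell at 48 h held 1 UMI each. At 2 months 640 of 3322 cells were positive (19.3%, 17.9 to 20.7), with 16.5 CPM (15.6 to 17.4), and at 4 months 1216 of 4499 (27.0%, 25.7 to 28.4), with 20.05 CPM (19.3 to 20.8). The 4-month level was 211 times the level of 3 counts in signature-positive parental cells. The ratio of 4 to 2 months was 1.22 (1.14 to 1.30), without a call. Over signature-positive cells alone the direction turned, with 22.5 CPM at 2 months and 20.06 CPM at 4 months, a ratio of 0.892 (0.834 to 0.954). Within the 2-month library 638 of the 640 positive cells were signature-positive, at 22.5 CPM against 0.0919 CPM in the other class, a ratio of 245 (67.6 to 2022), with 2 UMIs in that class. No single cell carried the level: at 4 months 251 cells held 50% of the UMIs, and 20.05 CPM became 19.8 CPM without the top cell. Of its targets, CTSL was not called in any comparison between timepoints, at 18.1 CPM in signature-positive parental cells and 18.02 CPM at 4 months, and CTSK had at most 1.38 CPM in any library.

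SERPINB3 and SERPINB4 also appeared at the late timepoints, but in few cells. The product of SERPINB3 inhibits papain-like cysteine cathepsins, and that of SERPINB4 chymotrypsin-like enzymes such as cathepsin G and chymase. SERPINB3 had 0 UMIs in culture and at 48 h, 6 UMIs at 6 h, 5.85 CPM (5.33 to 6.40) at 2 months and 12.2 CPM (11.6 to 12.9) at 4 months. SERPINB4 had 0 UMIs in culture, at 6 h and at 48 h, 0.457 CPM (0.322 to 0.631) at 2 months and 1.32 CPM (1.13 to 1.54) at 4 months. SERPINB3 at 4 months was 129 times the level of 3 counts in signature-positive parental cells (107 times without its top cell), and SERPINB4 13.9 times. For SERPINB4 1 cell held 59 of the 166 UMIs at 4 months, and without it the level was 0.853 CPM, 8.99 times that of 3 counts. Positive cells numbered 84 of 3322 (2.53%) and 298 of 4499 (6.62%) for SERPINB3, and 17 and 51 for SERPINB4.

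Both genes were concentrated in a handful of cells. At 4 months 11 cells held 50% of the SERPINB3 UMIs, and 1 of them held 264 UMIs, 1.20% of all its UMIs. At 2 months 5 cells held 50%, and 1 cell of 9438 UMIs held 116 of the 473. That same cell had the most UMIs of SERPINB4 (8) and of SERPINB7 (15) in its library. Without it SERPINB3 was 4.41 CPM at 2 months and its call against 48 h was lost by the 5 CPM minimum. The ratio of 4 to 2 months, 2.09 (1.89 to 2.32), was not called with 1 CPM added (log2 ratio 0.95), and without the top cells it was (1.04). Over signature-positive cells alone the ratio was 1.56 (1.41 to 1.73). It also depended on how cells were weighted, since the mean of the per-cell CPM was 14.6 at 2 months and 14.7 at 4 months, and the share of cells thinned to 1000 UMIs was 0.632% (0.392 to 0.965) and 0.711% (0.487 to 1.003). SERPINB3-positive cells were shallower than the others at 2 months (median 15657.5 against 22159.5 UMIs) and alike in depth at 4 months (28329 against 27429). In the signature-negative cells at 2 months all 9 SERPINB3 UMIs lay in 1 cell of 1058 UMIs, and without it this class had 0 CPM. That cell thus lowers the ratio of 18.97 (9.90 to 41.7) between classes. With equal weight of cells the levels were 14.7 and 14.04 CPM, the second from that cell alone. Positive cells were 83 of 2716 (3.06%) in the signature-positive class and 1 of 606 (0.165%) in the other.

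**Figure D4:**
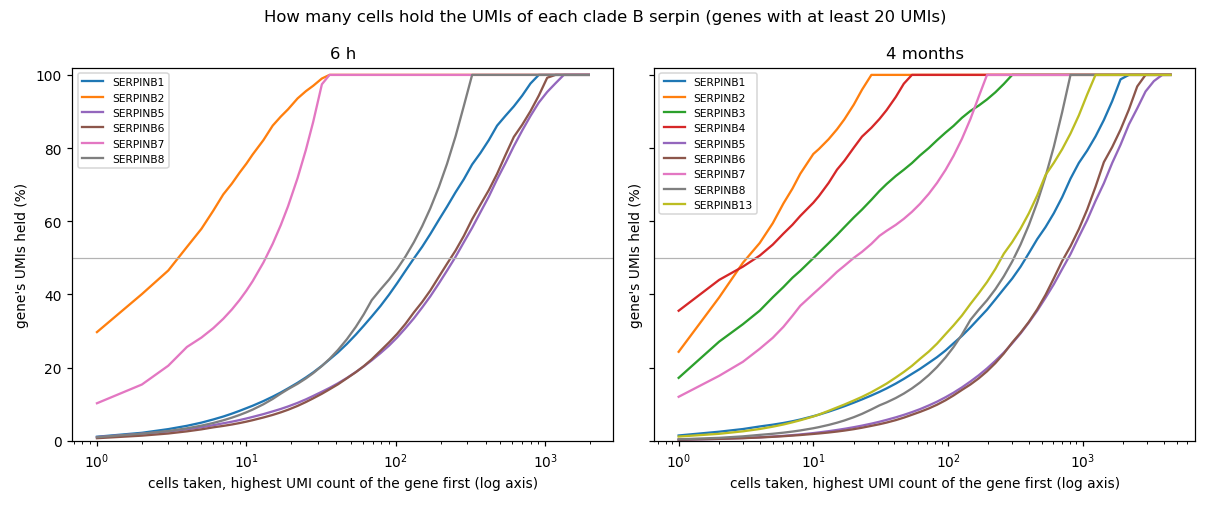
Percent of a gene's UMIs (y axis) held by the cells with the most UMIs of it (x axis, number of cells, log axis), for the clade B serpins with at least 20 UMIs at 6 h (left) and 4 months (right); the grey line marks 50%. SERPINB2 crosses the line at 4 cells in both libraries and SERPINB3 at 11 cells at 4 months, while SERPINB5 needs 249 and 787 cells.

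SERPINB7, a serpin of stratified epidermis whose loss causes a palmoplantar keratoderma, was low throughout. It had no UMI in signature-negative parental cells and 46 UMIs, 1.46 CPM (1.07 to 1.94), in signature-positive ones. The latter level was 84.1 times that of 3 counts in signature-negative parental cells. SERPINB7 was 1.20 CPM (0.852 to 1.64) at 6 h, 1.13 CPM (0.849 to 1.48) at 48 h, 2.16 CPM (1.86 to 2.51) at 2 months and 2.92 CPM (2.63 to 3.23) at 4 months. The signature-positive parental, 6 h and 48 h intervals overlap, and over signature-positive cells alone the 2-month level was 2.96 CPM (2.54 to 3.43), above them and beside 2.91 CPM (2.62 to 3.23) at 4 months. At 2 months all 175 UMIs were in the signature-positive class. Of the 4 clade B serpins outside the group, SERPINB9, the granzyme B inhibitor, had 2 UMIs in all, SERPINB10 and SERPINB12 had 1 each, and SERPINB11 had 5 UMIs at 6 h, 127 UMIs (1.57 CPM) at 2 months and 34 UMIs (0.271 CPM) at 4 months.

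SERPINB5, SERPINB7 and SERPINB8 were higher in CPM in the signature-positive class of both libraries that held the classes in number, whereas SERPINB1 and SERPINB6 were found in both classes at ratios between 0.608 and 1.32. With all cells of each lung library, the intervals of SERPINB5 did not overlap, in the order 6 h, 4 months, 48 h, 2 months, signature-positive and signature-negative parental cells. Over signature-positive cells alone, 2 months (109 CPM, 106 to 111) and 48 h (104 CPM, 101 to 107) changed places, with intervals that touch. For SERPINB1 the order was 6 h, 48 h, 4 months, 2 months and parental, with no overlap of intervals. For SERPINB8 48 h and 6 h came first and overlapped.

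Cells of the lung libraries carried more members together than those of the whole parental library. The median cell held UMIs of 1 member in culture, 2 members at 6 h, 3 at 48 h, and 2 at both late timepoints. Cells with exactly 5 members were 1, 10, 25, 72 and 186 in number in the same order of libraries. As shares of cells these were 0.0110%, 0.511%, 2.18%, 2.17% and 4.13%. Up to 8 members were found in a cell, in 3 cells at 4 months. These counts depend on depth: the 48 h library was the deepest, and the 6 h library was shallower than the parental one. They also depend on signature class, since 7749 of the 9059 parental cells were signature-negative. The signature-positive parental cells were not counted by themselves.

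Co-expression across the cells of a library was weak for most pairs. The values are Pearson correlations of log UMIs per 10000, given as descriptions, since cells of a library share depth and composition. SERPINB3 and SERPINB4 were highest, at 0.48 over 3322 cells at 2 months and 0.53 over 4499 cells at 4 months, and 0.37 and 0.51 without the top cell of either gene. With each cell thinned to 1000 UMIs the pair gave 0.18 and 0.13, but only 1 cell at each time then had UMIs of both. That is too few to give their co-expression at equal depth. At 4 months 42 of the 51 SERPINB4-positive cells also had SERPINB3. The part of reads that match both copies in this was not tested. SERPINB3 and SERPINB13 had 0.18 and 0.25, or 0.07 and 0.10 in thinned cells: at 4 months 59.1% of 298 SERPINB3-positive cells had SERPINB13, against 24.8% of the others at nearly the same depth, and at 2 months 47.6% of 84 against 18.5%, although the positive cells were shallower. The thinned values of SERPINB3 and SERPINB13 rest on 3 cells with both at 2 months and 6 at 4 months. SERPINB3 and SERPINB7 had 0.21 at 2 months, which was 0.08 without their shared top cell, and 0.26 at 4 months.

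Among the more abundant members the highest correlations were those of SERPINB1 with SERPINB5 at 48 h (0.29) and with SERPINB6 at 6 h (0.25), and of SERPINB5 with SERPINB13 at 2 months (0.29, or 0.24 within signature-positive cells). With each cell thinned to 1000 UMIs the first pair gave 0.03, the second -0.01 and the third 0.09. Thinned cells with UMIs of both genes numbered 5, 10 and 16. These were 1.47, 0.97 and 3.21 times the number given by the product of both shares. SERPINB6 was not correlated with any of the squamous members at 4 months, with values between -0.03 and 0.02 for SERPINB3, SERPINB5, SERPINB7 and SERPINB13. Of SERPINB13-positive cells at 4 months, 90.6% had SERPINB5, against 77.7% of the others, at median depths of 30240.5 and 26116 UMIs.

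**Figure D5:**
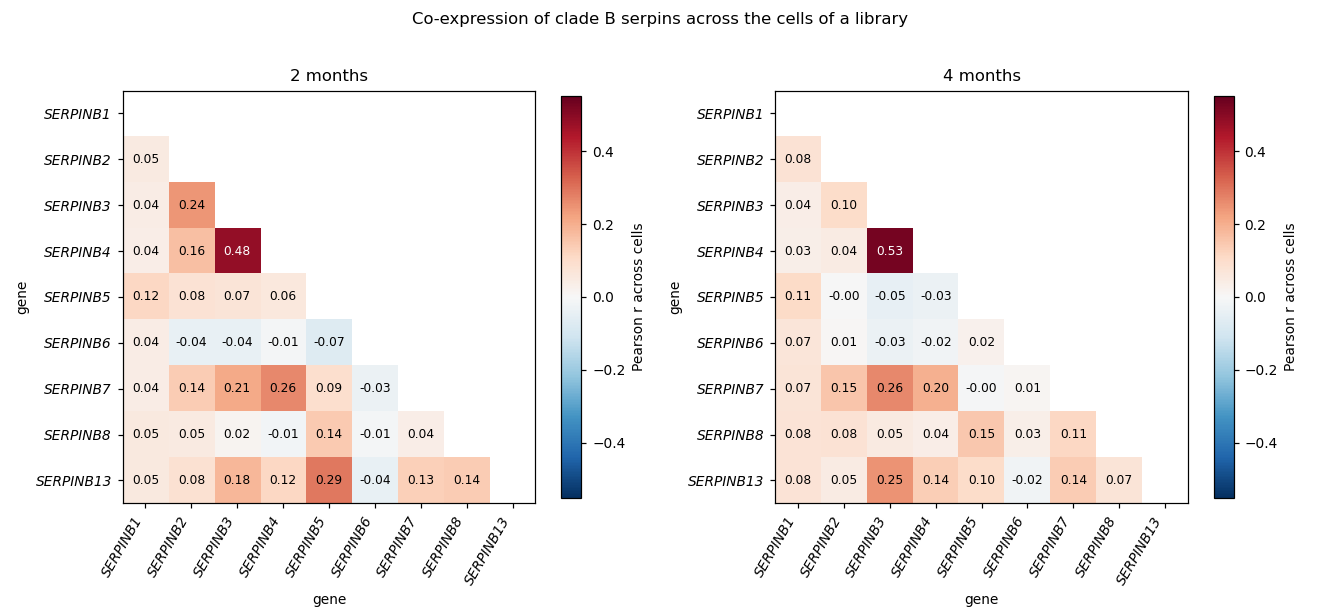
Pearson correlation of each pair of clade B serpins across the cells of the 2-month (left, 3322 cells) and 4-month (right, 4499 cells) libraries, from log UMIs per 10000. SERPINB3 with SERPINB4 is darkest in both (0.48 and 0.53), and the row of SERPINB6 stays near 0.

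Genes whose cell-to-cell pattern was most like that of a member were sought among the 9553 genes found in at least 5% of cells of all 4 lung libraries, by the mean Pearson correlation over the 4 libraries. For SERPINB5 these were SFN (0.41), LYPD3 (0.37) and PERP (0.34), of which SFN encodes the epithelial protein 14-3-3 sigma and PERP a desmosome protein of stratified epithelia. SERPINB8 had SFN (0.18) and TNFRSF12A (0.16) among its nearest genes, SERPINB1 was nearest to ISG20 (0.24), SDCBP2 (0.21) and SH3BGRL3 (0.20), and SERPINB6 to GAPDH, LDHA and RHOC (0.18, 0.18 and 0.17). These means hide differences between libraries. SERPINB6 with RHOC ran from 0.01 at 2 months to 0.35 at 48 h, and SERPINB5 with PERP from 0.24 at 4 months to 0.51 at 2 months. All cells of a library were used, so both signature classes enter the 2-month values. SERPINB6 also correlated with the UMIs of the cell (log10), at 0.20 (6 h), 0.30 (48 h), 0.18 (2 months) and 0.14 (4 months). These are about as high as its values with GAPDH, LDHA and RHOC, and the part of depth was not tested. SERPINB3 and SERPINB13 were added after their values were seen, over the 2-month and 4-month libraries and 10759 genes. SERPINB13 was nearest to IVL (0.37), which encodes the cornified envelope protein involucrin, LYPD3 (0.36) and SPRR1B (0.36), and SERPINB3 to S100A7 (0.38), known as psoriasin, TMEM45A (0.36) and S100P (0.34).

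Lists of genes were read beside the members. As with the members, a list gene that is low in 1 group passes the 5 CPM minimum only through the other. The genes tested thus differ between comparisons. The counts and medians below describe the lists and do not set them apart from other genes. Of 27 genes of squamous differentiation, 11 of 14 tested were higher and 0 lower at 6 h than in signature-positive parental cells (median log2 ratio 2.57 against -0.05 over all genes), and 1 of 14 was higher and 5 lower from 6 h to 48 h. In this list 13 of 17 tested were higher and 0 lower from 48 h to 2 months, with a median log2 ratio of 2.73 against -0.05 over all genes, and 17 of 19 were higher at 4 months than in signature-positive parental cells (median 5.10 against -0.23). Among them CSTA, a cytosolic inhibitor of cysteine cathepsins, went from 0.0427 CPM at 48 h to 64.0 CPM at 2 months, KRT6A from 97.5 to 2524 CPM, IVL from 5.15 to 60.7 CPM and SPRR1B from 21.3 to 386 CPM. Within signature-positive cells, the summed UMIs of this list correlated with SERPINB13 at 0.37 (2 months) and 0.40 (4 months) and with SERPINB5 at 0.42 and 0.27, and with SERPINB3 at 0.18 at 4 months. The 12 genes of the basal layer correlated with SERPINB5 at 0.27 and 0.26, with SERPINB13 at 0.15 and -0.03 and with SERPINB3 at -0.18 at 4 months.

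Within signature-positive cells of the early libraries, SERPINB5 correlated with the basal list at 0.32 (6 h) and 0.33 (48 h), about as with squamous differentiation at 6 h (0.33) and the plasminogen list at 48 h (0.35). For SERPINB8 the values with the basal list were 0.18 and 0.25, and for SERPINB1 0.17 and 0.16. Over all cells of these libraries, the members also correlated with the UMIs of the cell (log10). The values were 0.21 and 0.26 for SERPINB5, 0.12 and 0.18 for SERPINB8, and 0.20 and 0.19 for SERPINB1. The part of depth in the list values was not tested. At 6 h against signature-positive parental cells, 7 of 10 basal genes tested were higher and 0 lower (median 1.61 against -0.05), led by KRT14 (0.19 to 19.8 CPM) and the laminin chain LAMB3 (45.0 to 751 CPM). Cell cycle genes went the other way across the same comparison, with 0 of 15 higher and 8 lower, and their correlation with SERPINB5 in signature-positive cells ran from -0.01 in culture to -0.16 at 2 months. The inflammatory list, with 5 of 5 genes tested higher at 6 h and 7 of 8 lower from 48 h to 2 months, correlated with SERPINB5 at no more than 0.16 in any library. The interferon response list had 4 of 8 genes tested higher at 48 h than at 6 h, and correlated with SERPINB13 at 0.16 at 4 months.

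Of 19 protease genes that clade B serpins or related inhibitors act on, 5 to 7 reached 5 CPM on either side of a comparison. ELANE and CTSG, neutrophil elastase and cathepsin G, the targets of SERPINB1 and SERPINB6, had at most 0.0307 and 0.0495 CPM in any library. These values cover sorted human cells counted on the human genome. They do not measure the proteases of mouse neutrophils in the lung. At 4 months against signature-positive parental cells 4 of 6 tested were higher and 0 lower (median log2 ratio 2.03 against -0.23 over all genes), with the cathepsins CTSV at 230 against 39.3 CPM and CTSB at 339 against 71.3 CPM, and the epidermal kallikrein KLK5 at 350 against 8.04 CPM.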

How the data were processed

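Single-cell 3′ RNA libraries of KYSE30-Luc-GFP cells in culture and of GFP-sorted cells from mouse lungs were made by the authors, 1 library per timepoint, and processed with Cell Ranger 3 on GRCh38 (submitters' processing notes; matrix headers name 3.0.2). The deposited matrices hold UMI counts per gene and barcode, not normalized. Kept barcodes had 200 to 8000 genes, no fewer than 1000 UMIs and no more than 15% of UMIs from mitochondrial genes; no doublet caller was run, and leaving out the 5% deepest cells was tried instead. The class with the signature needed 1 UMI of each of 2 gene groups, none of them members. UMIs were summed per group and given as CPM with exact Poisson 95% intervals, and shares of cells with exact Clopper-Pearson ones; a 0 was taken as 3 counts. Log2 ratios had 1 CPM added, needed 5 CPM on either side and were called at 2-fold. Counting intervals do not cover differences between mice, captures or library preparations. Kept cells held 32540023 to 204864006 UMIs per library.

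The members were taken by name, with no threshold on a measured value, but this set of genes and the gene lists were chosen with earlier results of these data known. Named genes were all members, the other clade B serpins, up to 4 called genes of each list and the 3 genes most alike; CTSL, CTSK, ELANE and CTSG were named outside this rule, as targets, after their values were seen. A few genes that the rule would name are not reported here. Alternatives changed the added CPM, the minimum CPM, the cell filter, the weighting of cells, the scaling, the signature rule, the parental group and the thinning of cells. Scripts used Python 3.11.15, numpy 2.4.6, scipy 1.17.1, pandas 2.3.3 and matplotlib 3.10.9, and the ratio step was tested on simulated data. Gene positions came from GENCODE 44 and upstream sequences from RefSeq GRCh38.p14.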

Additional observations from a re-analysis of the deposited data

Results flagged for a closer look

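SERPINB1 and SERPINB6 were flagged because their difference between the signature classes had opposite directions in the 2 libraries that held both classes in number. The CPM ratio of signature-positive to signature-negative cells was 0.827 (0.749 to 0.911) for SERPINB1 in the parental library and 1.23 (1.11 to 1.36) at 2 months. For SERPINB6 it was 1.32 (1.25 to 1.38) in the parental library and 0.608 (0.566 to 0.654) at 2 months. With 1 library each, the difference between the libraries was not tested, and none of the 4 ratios passed 2-fold. Over all genes tested, the median log2 ratio between the classes was -0.26 in the parental library and -0.15 at 2 months. The parental value of SERPINB1 was near that of the typical gene, so it does not show a difference particular to SERPINB1. Over the alternatives the log2 ratio of SERPINB1 ran from -0.32 to -0.07 in the parental library and from 0.09 to 0.50 at 2 months, and that of SERPINB6 from 0.35 to 0.59 and from -0.76 to -0.49. At 2 months the signature-negative cells were deeper than the others, with a median of 37139.5 against 19415.5 UMIs; the part of depth in these ratios was not tested.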

How the results depend on the processing

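Of 160 counts of members called under an alternative, 144 stayed within 1.5 times the reported count and 16 did not, and no log2 ratio that was called changed sign. Except over signature-positive cells alone, the share of all genes called was not computed under an alternative, so these counts describe the members only. With a minimum of 1 CPM, 3 members were higher in signature-positive than in signature-negative parental cells, SERPINB7 and SERPINB8 being added. With a minimum of 20 CPM, 2 were higher at 6 h than in signature-positive parental cells, 0 lower at 48 h than at 6 h, 0 higher and 0 lower at 2 months than at 48 h, 3 higher at 4 months than in signature-positive parental cells, and 2 higher in the signature-positive cells at 2 months. The calls lost at this minimum were those of members under 20 CPM on both sides. Such members were no longer tested, while their log2 ratios stayed the same. With 5 CPM added, 0 were lower at 48 h than at 6 h, 0 lower at 2 months than at 48 h, and 3 higher at 4 months than in signature-positive parental cells. With equal weight of cells, 0 were lower at 2 months than at 48 h. With 0.1 CPM added, and with the median of ratios, 1 member (SERPINB3) was higher at 4 than at 2 months, at log2 ratios of 1.05 and 1.13. An alternative chosen after seeing the data left out the cell with the most UMIs of each member: 0 were then lower at 48 h than at 6 h, 1 higher at 2 months than at 48 h, and 1 (SERPINB3, log2 ratio 1.04) higher at 4 than at 2 months. Over signature-positive cells of both libraries, SERPINB13 (not called) turned from 0.27 to -0.16 on the log2 scale from 2 to 4 months. FURIN and the gene lists over these cells, and the folds over 3 counts without the top cell, were computed after seeing the data. Against all parental cells, SERPINB1 at 4 months was not called (log2 ratio 0.92). Scaling by the median of ratios moved all genes by -0.10 to 0.23 on the log2 scale. Of the shares of cells, 187 of 243 moved beyond their interval, the thinned cells among them. No paired analysis was possible because each group is 1 library, so that the groups share only 1 replicate number. Leaving out a replicate could not be done for the same reason. SERPINB2, SERPINB4 and SERPINB7 stayed under 10 CPM in every library, which limits what their ratios can show.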

Other observations

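SERPINB2 was found beside other members at 6 h, where its level was highest, and in the late cells. At 6 h 28 of 34 SERPINB2-positive cells had SERPINB5 (82.4%, against 66.5% of the others) and 20 had SERPINB1 (58.8% against 43.9%). Of these 34 cells 0 had SERPINB3 or SERPINB7, which only 0.104% and 1.72% of the other cells had. With such low shares, 34 cells are too few to show whether the genes are found apart. At 4 months 13 of 26 SERPINB2-positive cells had a UMI of SERPINB7 (50%), against 3.98% of the other cells. SERPINB3 was found in 7 of the 26 (26.9%), against 6.51% of the others. SERPINB11, whose gene surrounds SERPINB3 on the opposite strand, was found in 105 cells at 2 months (3.16%) and in 23 cells at 4 months (0.511%). SERPINB3 went from 84 cells (2.53%) to 298 cells (6.62%) between the same libraries. With each cell thinned to 1000 UMIs, SERPINB11 had 0.482% (0.276 to 0.781) and 0.0445% (0.00538 to 0.160). SERPINB3 then had 0.632% (0.392 to 0.965) and 0.711% (0.487 to 1.003), which overlap.

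The 34 to 50 signature-negative cells of the 6 h, 48 h and 4-month libraries were shallow, with medians of 1743, 1837 and 1490 UMIs. At 48 h they held 417 of the 636 UMIs of 5 fibroblast markers, and at 6 h 594 of the 1159 UMIs of 7 leukocyte markers. In the 35 cells at 6 h, 9 UMIs of SERPINB5, 6 of SERPINB6, 2 of SERPINB1, 2 of SERPINB8 and 1 of SERPINB3 were counted.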
